A study of Mus musculus with 14 samples.

Results

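The 9 genes described here encode scaffold proteins of the excitatory postsynaptic density: Shank1, Shank2 and Shank3, Dlgap1, Dlgap2 and Dlgap3, and Dlg2, Dlg3 and Dlg4. They were chosen by name, and all 9 were found among the 27781 named gene rows of the authors' deposited table. Each passed the filter on low values (at least 7 libraries with a value of 1 or above), as did 24554 genes in all. Expression was measured with SmartSeq libraries of RNA from neuronal nuclei of the medial entorhinal cortex (MEC) of mice, an area that holds grid cells. The study set the transcriptomes of young and aged mice beside recordings from this area. There were 7 young libraries (titles numbered 2, 3, 11, 16, 17, 18 and 19) and 7 aged libraries (3, 4, 5, 6, 7, 12 and 13). Age is the only difference between the groups that the labels state, without an age in months, a strain or a sex. Whether the libraries come from separate mice is not in the labels, and the p-values therefore reflect only how far these libraries scatter, which may be technical.

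Excitatory synapses on dendritic spines hold their glutamate receptors in place through a layered scaffold. The Dlg proteins (PSD-93, SAP102 and PSD-95 for Dlg2, Dlg3 and Dlg4) bind receptors and channels next to the membrane through PDZ domains. The Dlgap proteins, also called SAPAP or GKAP, bind the Dlg guanylate kinase domain on one side and the Shank PDZ domain on the other. The Shank proteins lie deepest, bind Homer and link the scaffold to the actin cytoskeleton. The end of the Dlgap proteins that docks on Shank is encoded by the last bases of their coding sequences. These are shown because they join both families, with the codons of the final 4 amino acids in capitals and the stop codon last (longest complete coding transcripts in GENCODE M21, GRCm38, 5′ to 3′, plus strand):
Dlgap1: tacatccccgaggcgCAGACCCGGCTCtga
Dlgap2: tacatccctgaggccCAGACGCGGCTCtga
Dlgap3: tacatccccgaggccCAGACCAGGCTGtga
The capitals are identical at 11 of 12 bases between Dlgap1 and Dlgap2, at 10 between Dlgap1 and Dlgap3 and at 9 between Dlgap2 and Dlgap3. The members share almost no longer sequence: only Shank2 and Dlg4 had any 31-base word in common with another member's transcripts, 3 words each.

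The libraries formed 2 sets that followed the title numbers rather than age. Those numbered 2 to 7 (2 young and 5 aged, called low-numbered) had Xist, the RNA that coats an inactive X chromosome, at 7378 to 25459. Those numbered 11 to 19 (5 young and 2 aged, called high-numbered) had it at 0 to 5.13. Malat1, a nuclear long non-coding RNA, ranged from 11412 to 21489 in the first set and from 55442 to 167698 in the second. A sum of 4 Y-linked genes was 1.14 to 11.1 in the low-numbered and 4367 to 9425 in the high-numbered libraries, and 21152 to 22812 against 25263 to 25615 genes were above 0. Young and aged libraries are unevenly spread over the sets, and each age difference is therefore given from a fit of age alone and after set adjustment (the set added as a term). All values are the authors' normalized values, and read depth is unknown. The neuronal markers Rbfox3, Snap25, Syt1 and Map2 were above 0 in all 14 libraries, as were all markers of excitatory and inhibitory neurons, glia and vessels that were checked. In bulk nuclei, fewer cells of a type and less RNA per cell cannot be told apart.

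Shank1 had the lowest p of the members in the age comparison. This gene (ENSMUSG00000038738.15, chromosome 7, 44310253 to 44360572, plus strand, mm10) encodes a Shank protein known for enlarging spine heads. In the low-numbered set it measured 8829 and 9788 in the 2 young libraries. The 5 aged libraries of that set measured 3645, 4372, 4018, 5703 and 3909. Every aged library of this set thus lay below both young ones. In the high-numbered set the 5 young libraries measured 3399, 4458, 4375, 4063 and 6875, and the 2 aged libraries 2258 and 2063. Again no aged library reached a young one, and the ratio of the aged to the young mean was 0.465 in the low-numbered and 0.466 in the high-numbered set. Pooled over sets the groups overlapped, since the aged low-numbered and young high-numbered libraries had similar values (5970 ± 2538 in young and 3710 ± 1250 in aged libraries, SD, n = 7 each).

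For Shank1, log2(value + 1) in aged minus young libraries came to -0.66 (SE 0.28, unadjusted p = 0.0325, limma adjusted p = 0.190) with age alone. After set adjustment it was -1.09 (SE 0.17, unadjusted p = 9.993e-06, limma adjusted p = 0.0675), the 3rd smallest p of 24554 genes. It therefore did not pass the threshold of 0.05 after adjustment over all genes in either fit. Within the sets it was -1.12 (SE 0.19) in the low-numbered and -1.06 (SE 0.27) in the high-numbered libraries, and the age by set interaction was -0.06 (SE 0.36, limma adjusted p = 0.9997), in a fit where no gene passed and 3.62% had an unadjusted p under 0.05. In the authors' deposited table the log2 fold change of Shank1 was -1.10 (SE 0.18, adjusted p = 1.051e-05), rank 6 by p among 26990 genes. Shank1 was the only one of the 9 members past 0.05 there, in a table where 2.41% of genes with an adjusted p passed, 1.57% as lower in aged mice. The sources used here do not say which terms that model held. For each of the 9 members its fold change lay closer to the set-adjusted value than to that with age alone. For Dlgap3 it was -0.42, against -0.48 after set adjustment and 0.08 with age alone. Of all genes tested, 9.82% had every aged library below every young one in the low-numbered set (Shank1 alone of the members) and 0.0733% over all 14 libraries (no member). Within each set at once, 1.20% of genes did, and Shank1 was the only member among these.

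**Figure D1:**
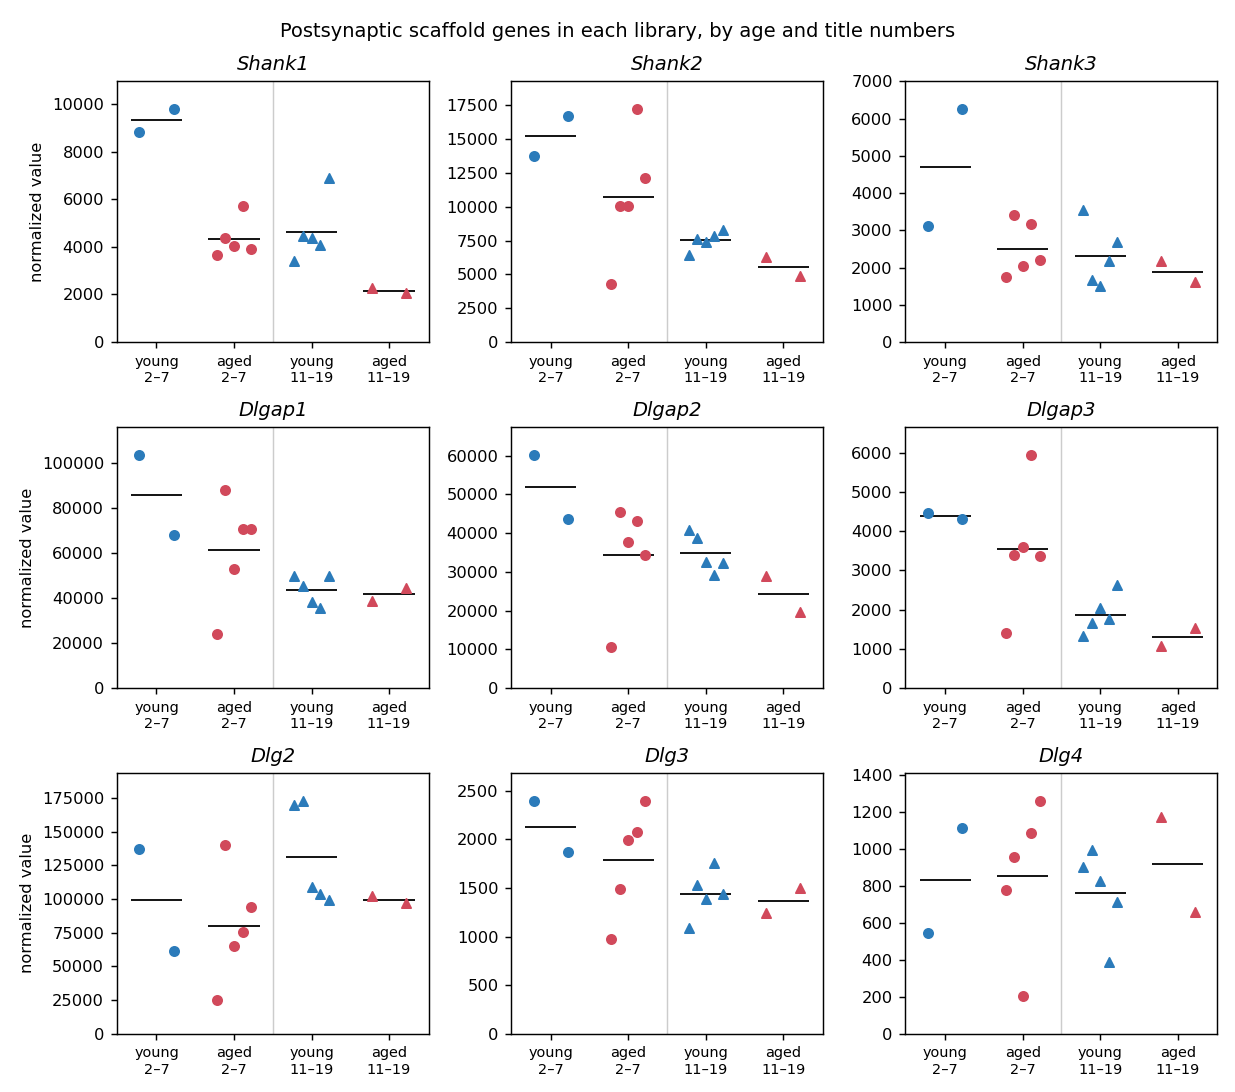
Normalized value (linear axis from 0) of each of the 9 genes in each library, by age (young blue, aged red) and title numbers (2 to 7 circles, 11 to 19 triangles), with horizontal bars at the mean. Shank1 separates aged from young libraries within each set, from 3645 to 5703 against 8829 and 9788, and 2258 and 2063 against 3399 to 6875, while the ages overlap in both sets for Shank3, Dlgap1, Dlgap3 and the 3 Dlg genes.

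Shank2 (chromosome 7, 144001928 to 144424494, plus strand), mutated in some cases of autism in humans, had means of 9739 ± 3895 in young and 9267 ± 4575 in aged libraries (SD, n = 7 each). Its log2 difference was -0.14 (SE 0.31, limma adjusted p = 0.789) with age alone and -0.54 (SE 0.25, limma adjusted p = 0.385) after set adjustment. In the high-numbered set the aged libraries, at 6259 and 4888, lay below all 5 young ones, at 6472, 7636, 7424, 7865 and 8283. In the low-numbered set the aged libraries spanned the young ones, from 4293 to 17220 around 13785 and 16708.

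Shank3 (chromosome 15, 89499623 to 89560261, plus strand), the gene deleted in Phelan-McDermid syndrome in humans, had a lowest, median and highest value of 1497, 2681 and 6261 in young libraries. The same values in aged libraries were 1617, 2167 and 3408. The ages overlapped in both sets. Its log2 difference was -0.25 (SE 0.28, limma adjusted p = 0.572) with age alone and -0.55 (SE 0.26, limma adjusted p = 0.386) after set adjustment. Without young library 3, its highest, these were -0.05 and -0.28.

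The share of each Shank gene in the summed values of the 3 is free of the scaling between libraries. These values were not divided by gene length, so the shares compare libraries and not the genes with each other. Shank1 made up 25.3 to 38.5% of the summed Shank values in young libraries, with a median of 32.4%. In aged libraries it made up 21.1 to 25.0% in 6 of 7 and 37.6% in aged library 3. Shank2 held 46.4 to 55.8% in young libraries and 56.3 to 66.5% in the same 6 aged ones, against 44.3% in aged library 3. Shank3 did not separate the ages, at 11.3 to 26.5% against 12.1 to 20.3%. The Shank1 and Shank2 shares are bound to move against each other, because the 3 shares sum to the whole, and these shares were given no test.

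Aged library 3 stood apart. It had the lowest value of the low-numbered set for 8 of the 9 members, all but Dlg4. Its 4 excitatory neuron markers (Slc17a7, Slc17a6, Camk2a and Neurod6) summed to 9783, against 20602 to 31104 in the other libraries of the set. Its 4 inhibitory neuron markers (Gad1, Gad2, Slc32a1 and Lhx6) summed to 13377 against 3654 to 7408, and its 6 oligodendrocyte markers to 18463 against 3488 to 11355. In the other 4 aged low-numbered libraries the excitatory sum ranged from 20602 to 31104, around the 25546 and 23779 of the young ones, while Shank1 was at 3909 to 5703. The microglia and oligodendrocyte precursor sums were higher in every aged than in every young library of that set, at 756 to 1768 against 669 and 701, and at 244 to 956 against 162 and 174. These sums overlapped between the ages in the high-numbered set. In the high-numbered set the excitatory sum was 16372 to 22738 in young libraries and 17385 and 17467 in aged ones, within but near the lower end of the young range, and whether they fall inside it depends on which markers are summed. The inhibitory sum of that set was 3905 to 8330 in young libraries and 10835 and 6781 in aged ones, and the oligodendrocyte sum 3487 to 9778 against 8753 and 16865. The part of these markers in the Shank1 values was not tested. Without aged library 3 the log2 difference of Shank1 after set adjustment was -1.06 (SE 0.17, limma adjusted p = 0.0536).

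**Figure D2:**
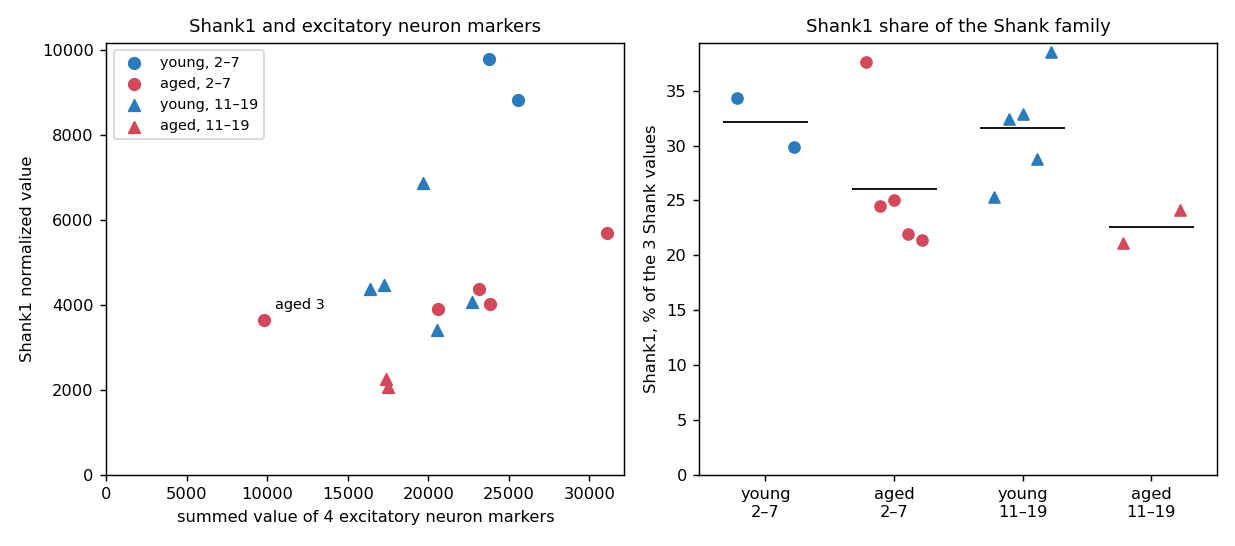
Left, Shank1 normalized value against the summed value of 4 excitatory neuron markers in each library; right, Shank1 as a percentage of the 3 Shank values in each library, with bars at the mean; colours give age and shapes the title numbers. Aged library 3 has the lowest marker sum (9783) and a Shank1 share of 37.6%, and the other 6 aged libraries have shares of 21.1 to 25.0%.

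The Dlgap genes, which link Dlg to Shank, had negative differences after set adjustment that did not pass the test. Dlgap2 (chromosome 8, 14095865 to 14847680, plus strand) measured 43536 and 60237 in the young low-numbered libraries. It measured 10671, 45504, 37815, 43249 and 34289 in the aged ones. In the high-numbered set the young libraries measured 29301 to 40812, all above the aged ones at 29015 and 19676. Non-overlap of that kind, aged below young in the high-numbered set, was found in 6.28% of all genes tested and in 3 members (Shank1, Shank2 and Dlgap2). The log2 difference of Dlgap2 was -0.43 (SE 0.32, limma adjusted p = 0.377) with age alone and -0.63 (SE 0.31, limma adjusted p = 0.397) after set adjustment. Leaving out aged library 3, where it was lowest, changed these to -0.20 (SE 0.26, limma adjusted p = 0.662) and -0.45 (SE 0.17, limma adjusted p = 0.306).

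Dlgap1 (chromosome 17, 69969073 to 70821413, plus strand) had almost equal means, at 55690 ± 23536 in young and 55513 ± 22013 in aged libraries (SD, n = 7 each). Its log2 difference was -0.02 (SE 0.34, limma adjusted p = 0.969) with age alone and -0.32 (SE 0.29, limma adjusted p = 0.640) after set adjustment, and the latter was -0.17 (SE 0.19) without aged library 3 and -0.14 (SE 0.32) without young library 2. Dlgap3 (chromosome 4, 127169204 to 127237022, plus strand), whose loss in mice gives compulsive grooming, measured 4467 and 4317 in young low-numbered libraries against 1393 to 5951 in aged ones. In the high-numbered set it measured 1316 to 2622 in young libraries and 1083 and 1524 in aged ones, so the ages overlapped in both sets. Its difference was 0.08 (SE 0.39, limma adjusted p = 0.913) with age alone and -0.48 (SE 0.28, limma adjusted p = 0.461) after set adjustment.

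The Dlg genes showed no age difference past the test. Dlg2 (chromosome 7, 90476672 to 92449247, plus strand) had a lowest, median and highest value of 61538, 108838 and 173175 in young libraries. In aged libraries these were 25250, 94190 and 139986, and the lowest was aged library 3. Its log2 difference was -0.59 (SE 0.41, limma adjusted p = 0.349) with age alone and -0.37 (SE 0.37, limma adjusted p = 0.673) after set adjustment, and without aged library 3 these were -0.32 and -0.20. The set-adjusted value of Dlg2 was -0.155 without young library 2 and -0.58 without young library 3. Dlg3 (chromosome X, 100767722 to 100818410, plus strand), an X-linked gene known for human intellectual disability, had means of 1639 ± 418.9 and 1666 ± 502.1 in young and aged libraries (SD, n = 7 each). Its difference was 0.00 (SE 0.22, limma adjusted p = 0.992) with age alone and -0.19 (SE 0.21, limma adjusted p = 0.715) after set adjustment, and the latter was -0.086 without aged library 3 and -0.088 without young library 2.

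Dlg4 (chromosome 11, 70016942 to 70047522, plus strand), which encodes PSD-95, had the lowest mean of the 9 members in values not divided by length. The means were 782.6 ± 254.0 in young and 873.1 ± 365.2 in aged libraries (SD, n = 7 each). Dlg4 ranged from 387.2 to 1114 in young libraries, with a median of 825.8, and from 201.7 to 1261 in aged ones, with a median of 953.8. The groups overlapped throughout. Dlg4 was the only member with a positive difference in the fit with the library set, at 0.09 (SE 0.40, limma adjusted p = 0.944), against 0.05 (SE 0.37, limma adjusted p = 0.939) with age alone.

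Over the 9 members, none passed the adjusted threshold with age alone or after set adjustment, where 0.00407% and 0.00815% of all genes tested did. At an unadjusted p under 0.05, 1 member (Shank1) was past it in each fit, against 24.1% and 13.1% of all genes (17.6% and 9.03% in the negative direction). Without aged library 3, Shank1, Shank2 and Dlgap2 were lower at that level after set adjustment, as were 2323 of 24554 genes. Differences were negative in 6 of 9 with age alone (median -0.14, against -0.25 and 62.8% negative over all genes) and in 8 of 9 after set adjustment (median -0.48, against -0.16 and 62.5%). Without aged library 3 the negative count was 4 of 9 with age alone (median 0.02, against -0.24 and 62.7% negative over all genes). After set adjustment it was then 8 of 9 (median -0.33, against -0.15 and 62.8%). When genes were ordered by span into 5 equal bins, 4 of the 9 members were in the longest bin and 4 in the next. In those bins the median difference after set adjustment was -0.22 and -0.20, against 0.13 in the shortest bin. Gene length thus moved with the age difference, and its part in the members' values was not tested.

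The other postsynaptic density genes, a list of 25 scaffold partners, regulators and auxiliary subunits, were mostly negative. After set adjustment 24 of 25 were negative, against 62.5% of all genes, with a median of -0.34 against -0.16. When libraries were rescaled to equal totals 18 of 25 were negative, and the share of all genes was not computed there. After set adjustment 7 of 25 were lower at an unadjusted p under 0.05, against 9.03% of all genes. None passed after adjustment (smallest limma adjusted p = 0.225). With age alone 15 of 25 were negative, against 62.8% of all genes, and the median was -0.07 against -0.25. Without aged library 3 the fit with the set gave 22 of 25 negative and a median of -0.18, against 62.8% and -0.15 over all genes. As many as 17 of the 25 were in the longest bin of genes.

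The 3 with the smallest p among those negative were Kalrn, Tanc2 and Cacng8. Kalrn, an exchange factor for Rac that acts in spines, measured 69187 and 86365 in the young low-numbered libraries, and 15387 to 52185 in the aged ones. In the high-numbered set it measured 17221 to 31692 in young libraries and 13294 and 13686 in aged ones. Its ages did not overlap within either set, which held for 1.20% of all genes in that direction, and also for Tanc2 and Cacng8. The difference of Kalrn was -0.97 (SE 0.28, limma adjusted p = 0.225) after set adjustment and -0.31 with age alone. Tanc2, a scaffold that binds PSD-95, had differences of -0.41 (SE 0.14, limma adjusted p = 0.264) and -0.02. Cacng8, an auxiliary subunit of AMPA receptors, had differences of -0.76 (SE 0.265, limma adjusted p = 0.274) and -0.37. Of the 25, 2 passed 0.05 in the authors' deposited table, both lower in aged mice, where 2.41% of all genes passed and 1.57% as lower, with log2 fold changes of -0.93 for Kalrn (adjusted p = 0.0419) and -0.42 for Tanc2 (adjusted p = 0.0182). Begain, a PSD-95-binding protein, was the only positive one, at 0.73 (SE 0.29, limma adjusted p = 0.321), and 1.34 with age alone. In the high-numbered set it measured 203.2 to 506.9 in young and 809.7 and 990.4 in aged libraries. The ages overlapped in the low-numbered set, at 1397 and 1491 in young and 1246 to 2607 in aged libraries. Its age by set interaction was -1.33 (SE 0.50, limma adjusted p = 0.9997). Homer1, Homer2 and Homer3, which bind Shank, had differences of -0.31, -0.16 and -0.51 after set adjustment (limma adjusted p = 0.739, 0.842 and 0.752). With age alone they had 0.07, 0.44 and -0.29, so the sign depended on the fit for Homer1 and Homer2. Homer3 was low, with a median of 88.8, and young library 2 stood apart at 1073. The other young low-numbered library had 56.9, and the aged ones of that set 56.0 to 154.6. In the high-numbered set Homer3 measured 48.2 to 251.4 in young and 118.7 and 124.6 in aged libraries. Dlg1 and Dlgap4, the close relatives of the members, had -0.34 and -0.40 (limma adjusted p = 0.583 and 0.420), and -0.17 and 0.14 with age alone.

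Genes of the inhibitory postsynapse serve as a counterpart. Of 6 genes of inhibitory postsynapses, 4 were negative after set adjustment, against 62.5% of all genes, with a median of -0.17 against -0.16. With age alone 2 were negative, against 62.8% of all genes, with a median of 0.17 against -0.25. Without aged library 3, 5 of 6 were negative after set adjustment, against 62.8% of all genes, with a median of -0.10 against -0.15. None of the 6 was past an unadjusted p of 0.05 in either fit. Gphn, which encodes the inhibitory scaffold gephyrin, had a difference of 0.15 (SE 0.16, limma adjusted p = 0.712), and 0.65 with age alone. Nlgn2, its adhesion partner, had -0.29 (SE 0.22, limma adjusted p = 0.568), and 0.48 with age alone. Whether the excitatory and inhibitory lists differ was not tested.

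**Figure D3:**
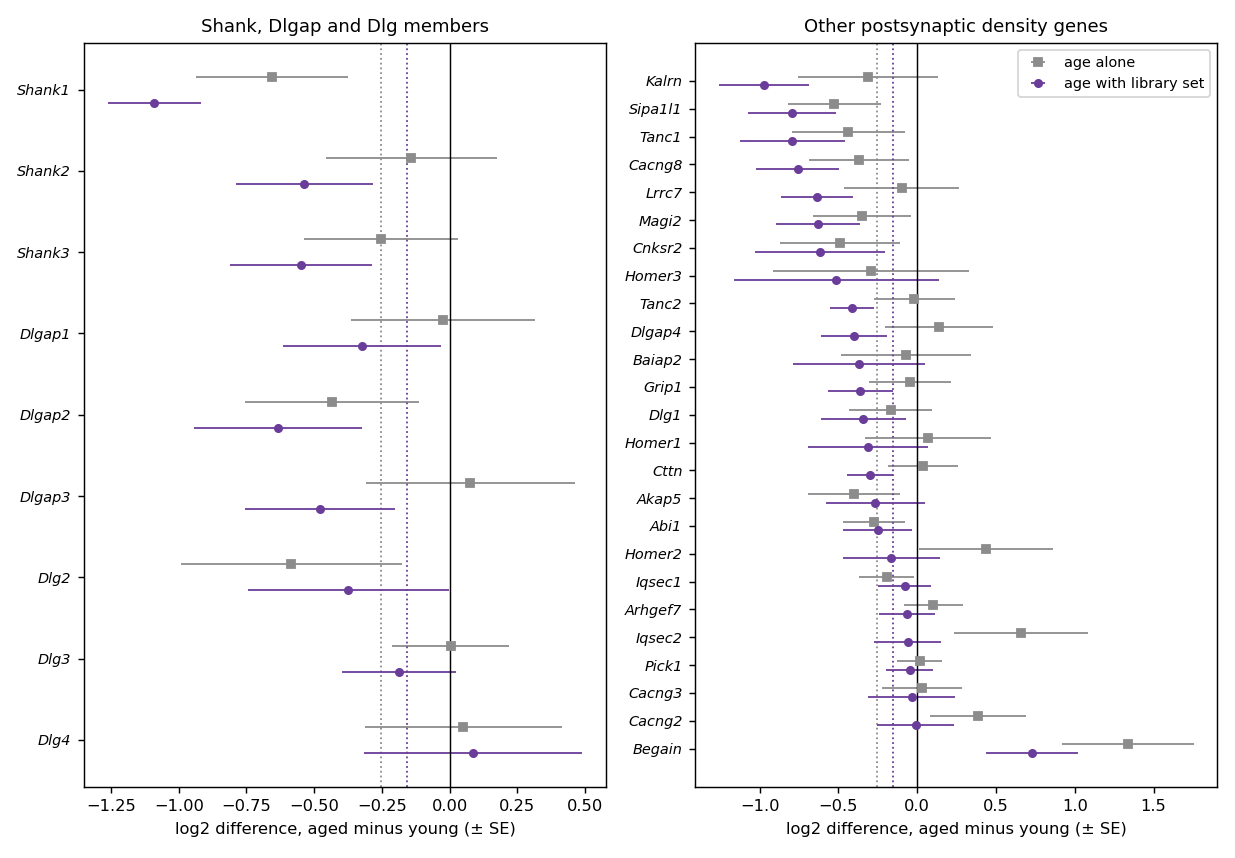
Log2 difference (aged minus young, log2(value + 1) scale, bars ± SE) of the 9 members (left) and 25 other postsynaptic density genes (right) with age alone (grey squares) and after set adjustment (purple circles); dotted lines mark the median of all genes tested in each fit (-0.25 and -0.16). After set adjustment 8 of 9 and 24 of 25 genes are negative, against 62.5% of all genes tested. Shank1 at -1.09 and Kalrn at -0.97 lead, and none passes the adjusted threshold.

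The 3 Shank genes and Dlgap3 were higher in the low-numbered than in the high-numbered libraries with age in the model. These were 4 of 9 members, where 52.0% of all genes tested passed, 15.5% in that direction and 36.5% in the other. Dlgap3 had the largest log2 difference between the sets, low-numbered minus high-numbered, at 1.29 (SE 0.28, limma adjusted p = 0.000924). Shank1 followed at 1.02 (SE 0.17, limma adjusted p = 0.000129), Shank2 at 0.92 (SE 0.25, limma adjusted p = 0.00622) and Shank3 at 0.69 (SE 0.26, limma adjusted p = 0.0357). The Shank3 call was lost when libraries were rescaled to equal totals (0.37, limma adjusted p = 0.250) or to equal upper quartiles (0.57, limma adjusted p = 0.0903), and when any 1 of 7 libraries was left out. The 7 were young libraries 3, 16, 17 and 18 and aged libraries 4, 6 and 13, and the difference was smallest without young library 3 (0.42, limma adjusted p = 0.206). Dlgap1 (0.69, limma adjusted p = 0.0567), Dlg3 (0.45, limma adjusted p = 0.0861) and Dlgap2 (0.47, limma adjusted p = 0.222) did not pass. Without aged library 3 all 3 did (0.85, 0.55 and 0.65, limma adjusted p = 0.00153, 0.00967 and 0.00493), as did 13391 of 24554 genes in either direction. Dlgap1 also passed with robust eBayes (limma adjusted p = 0.0445), and Dlgap1 and Dlg3 with array weights (limma adjusted p = 0.0131 and 0.0487). The share of all genes was not computed for these 2 settings. Dlg2 and Dlg4 had negative values, at -0.49 (SE 0.37, limma adjusted p = 0.283) and -0.08 (SE 0.40, limma adjusted p = 0.875). By Xist and the Y-linked genes, the low-numbered libraries have the pattern of females and the high-numbered libraries that of males. The labels state no sex. The first set holds 5 aged and 2 young libraries and the second 2 aged and 5 young, so the ages differ in this pattern too. Whether sex, batch or another property goes with the members' differences between the sets cannot be told apart here.

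**Figure D4:**
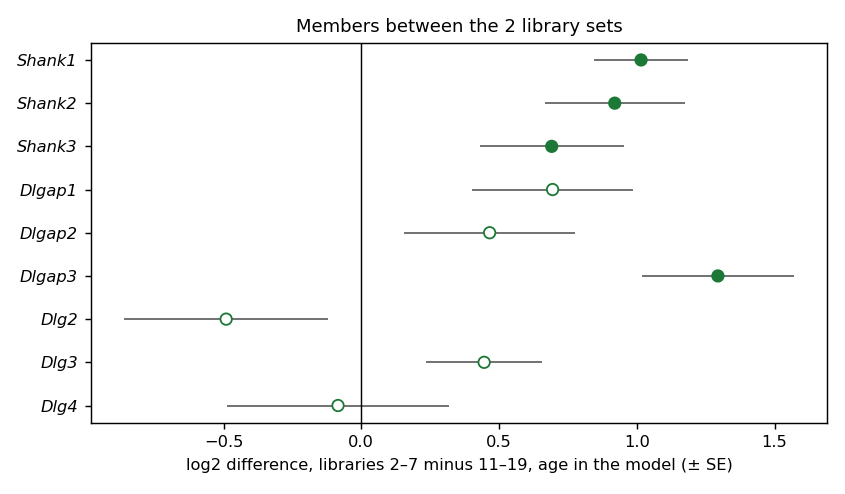
Log2 difference between the low-numbered and high-numbered libraries for each member, with age in the model (bars ± SE); filled circles passed an adjusted p under 0.05. The 3 Shank genes and Dlgap3 passed, from 0.69 to 1.29, while Dlg2 (-0.49) and Dlg4 (-0.08) are on the other side of 0.

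Levels of different genes can be set side by side only per length. Per kilobase of annotated exon, averaged over 14 libraries, Dlg2 was highest at 6375 ± 2532 (SD, n = 14), followed by Dlgap2 at 5781 ± 1939 and Dlgap1 at 3108 ± 1224. These 3 genes span 1972.6, 751.8 and 852.3 kb, and exons make up 0.83, 0.82 and 2.10% of the spans. Next per kilobase of exon were Shank2 at 882.5 ± 379.8, Dlgap3 at 608.1 ± 325.3 and Shank1 at 460.3 ± 214.1. Shank3 at 290.1 ± 135.4, Dlg3 at 282.7 ± 76.1 and Dlg4 at 62.5 ± 23.1 were lowest. Dlg4 has the most exon-rich locus of the 9, with exons in 43.3% of its 30.6 kb. Neighbours in this order that changed places often were Dlg2 and Dlgap2 (the first higher in 9 of 14 libraries), Dlgap3 and Shank1 (10 of 14) and Shank3 and Dlg3 (6 of 14).

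Per kilobase of gene span the order was different. Shank1 was highest at 96.2 ± 44.7 and Shank2 lowest at 22.5 ± 9.68 (SD, n = 14), with Dlgap1 at 65.2 ± 25.7, Dlg2 at 52.6 ± 20.9 and Dlg3 at 32.6 ± 8.77. Each gene in this order exceeded the next in only 9 or 10 of 14 libraries. The sources used here do not say whether intronic reads were counted, so neither scale is preferred. All members but Dlg3, Dlg4 and Dlgap3 overlap annotated genes on the other strand, from 1 gene for Shank1 and Shank3 to 8 for Dlg2. With both strands counted, 30 annotated genes overlap Dlg2, 4 Dlgap2, 3 Shank2 and 2 Shank1, so some lie on the same strand. Whether strand was used in counting is not stated, and reads of such pairs may not be told apart. Strand would not separate the overlaps on the same strand.

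**Figure D5:**
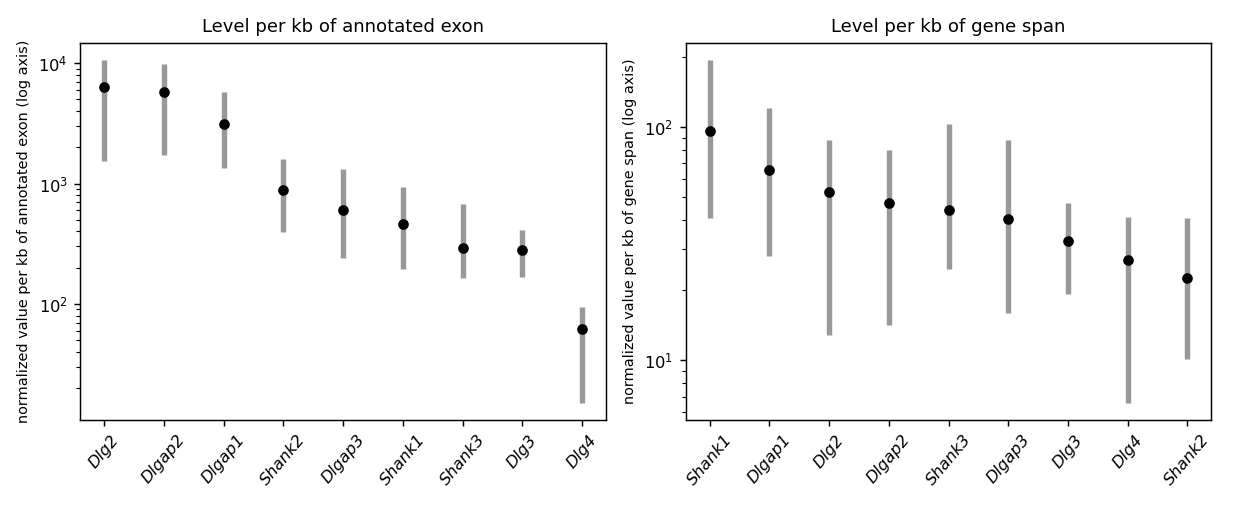
Normalized value per kilobase of annotated exon (left) and per kilobase of gene span (right), log axes, with points at the mean and grey bars from the lowest to the highest of 14 libraries. Dlg2, Dlgap2 and Dlgap1 lead per exon length (6375, 5781 and 3108), whereas per span the 9 genes lie between 22.5 and 96.2.

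The likeness of the members to each other depended on aged library 3. Over the 7 low-numbered libraries the median Pearson r of the 36 pairs, on the log2(value + 1) scale, was 0.62 (from -0.06 to 0.97), and without aged library 3 it was 0.25 (from -0.38 to 0.88). Over the 7 high-numbered libraries the median was 0.22 (from -0.72 to 0.90), with Shank1 and Shank2 the most alike. All pairs share their libraries and scaling, and age also differs within each set, so these values are a description. The member with the lowest median r to the others was Dlg4 in the low-numbered set (0.10), Dlg2 in that set without aged library 3 (-0.07) and Dlg3 in the high-numbered set (-0.37).

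Outside the list, the genes whose values followed Shank1 most closely in both sets, of 13852 compared, were Ankrd11, a chromatin regulator (r = 0.94 in the low-numbered and 0.95 in the high-numbered set, n = 7 libraries each), Agap2, a GTPase-activating protein (0.93 and 0.93), and Syt7, a calcium sensor of vesicle fusion (0.92 and 0.95). For Shank2 they were Zfand3 (0.98 and 0.97), Tor1b (0.95 and 0.95) and Rcor1 (0.93 and 0.94). For Shank3 they were Wif1 (0.93 and 0.86), Faxc (0.86 and 0.85) and Zfp59 (0.83 and 0.83). For Dlg4 they were Eif4ebp2 (0.84 and 0.85), Lrwd1 (0.83 and 0.88) and Zbtb46 (0.87 and 0.79). These genes were picked as the highest of many, so their r values are high by construction.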

How the data were processed

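The authors deposited 1 table of normalized signal per gene (14 library columns). The values are fractional and were scaled between libraries: over 18245 genes detected everywhere, each library's median ratio to the gene-wise geometric mean is 1.02. Per the submitters' processing notes, STAR, kallisto, DESeq2 and the mm10 build were used, with no version or role stated. The sources used here state no annotation, filter or model terms. The authors' log2 fold change and SE, test statistic (a score), p-value and adjusted p-value, per the file headers, were used only as their own comparison, except the score, which was not used. One row without a gene name (0.043 to 0.221% of a library's total) and the row named Recording were left out. Because the signal is not counts, no count model was run, and depth and counting intervals are unknown.

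From these values, limma 3.58.1 (R 4.3.3; lmFit, eBayes with a mean-variance trend) was fitted to log2(value + 1) over the 24554 genes that reached a value of 1 in 7 or more libraries, with Benjamini-Hochberg adjustment over all of them and a threshold of 0.05. A log2 difference on this scale understates the change of low genes. Terms were age; age and library set; and their interaction. The sets come from the title numbers (below or above 10). The fits were tested on simulated data, with errors drawn independently for each gene and library. The outcome of that test is not given here, and no result above rests on it. Effects of a single library that are shared over genes were not simulated, so that test does not cover them. Gene spans and exons are from GENCODE M21 (GRCm38), matched by symbol, and the span bins hold 3086 to 3089 genes each; Insyn1 and Insyn2a were matched through older symbols in RefSeq. Descriptive values were computed with Python 3.11.15, numpy 2.4.6 and pandas 2.3.3.

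The members and lists were chosen with earlier results of these data known. Named genes are the 9 members; of the 25 other postsynaptic density genes, those past the threshold, or up to 3 per direction by smallest p; and the 3 genes (mean of 100 or more) with the highest lower r over the sets for Shank1, Shank2, Shank3 and Dlg4. The Homer genes, Dlg1, Dlgap4, Gphn and Nlgn2 were named for their relation to the members, after their values were seen. Of the lists, 3 genes are not reported here and are left out of the list counts and marker sums.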

Additional observations from a re-analysis of the deposited data

How the results depend on the processing

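Alternatives were pseudocounts of 0.5 and 10, no filter or a filter at 10, rescaling to equal totals or upper quartiles, array weights, robust eBayes, each set alone and leaving out each library. Over the values of single members, 43 reversed, 9 became stronger, 9 became weaker and 573 did neither. After set adjustment, Shank1 passed the threshold with a pseudocount of 10 (-1.09, limma adjusted p = 0.0447) and with array weights (-1.05, limma adjusted p = 0.0439), which gave 1 member past it in each. Array weights also took Shank1 with age alone from -0.66 to -0.15 (limma adjusted p = 0.542), gave 1 member with age alone (Dlgap3, 0.79, limma adjusted p = 0.0230), 7 of 25 negative postsynaptic density genes in place of 15, and reversed Shank2 (0.37), Shank3 (0.27), Dlgap1 (0.50) and Dlg4 (-0.021) with age alone and Dlg4 (-0.039) after set adjustment. Dlg3 with age alone reversed to -0.039 at equal upper quartiles, the Shank1 interaction to 0.01 at equal totals, and Dlg4 to -0.10 in the low-numbered libraries alone. The cause was not tested. For the changes of pseudocount, filter, scaling and weights, the share of all genes that passed or were negative was not computed. The counts of members and list genes in those settings therefore have no background beside them.

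Leaving out 1 library at a time, Shank1 after set adjustment ranged from -1.14 to -1.02 (limma adjusted p from 0.0536 to 0.288). With age alone the ranges crossed 0 for Shank2 (-0.32 to 0.017), Dlg3 (-0.093 to 0.12), Dlg4 (-0.11 to 0.37), Dlgap1 (-0.15 to 0.16) and Dlgap3 (-0.13 to 0.28), as did Dlg4 after set adjustment (-0.12 to 0.32) and between the sets (-0.32 to 0.14), and the Shank1 interaction (-0.21 to 0.041). Between 3 (without young library 3) and 7 members (without aged library 3) passed between the sets. Without aged library 3, 13391 of 24554 genes passed in either direction, and the share without young library 3 was not computed. No paired analysis was possible because the groups share only the replicate number 3.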
